A study of Mus musculus with 12 samples.

Results

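Satellite glial cells wrap the cell bodies of sensory neurons in the dorsal root ganglion, and 10 genes that mark them were followed here out of 44345 genes counted: Fabp7, Glul, Ttyh1, Apoe, Gja1, S100b, Slc1a3, Cdh19, Sox2 and Sox10. The genes were taken by name as markers of these cells, and open regions of chromatin were taken where they lay at these genes. C57BL/6 mice, 6 to 8 weeks old, all received an axotomy of the spinal dorsal columns (DCA), and their L4-L6 ganglia were collected 24 h later. The groups were DCA with MS275, an inhibitor of class I histone deacetylases also called entinostat, at 12 mg/kg, and DCA with its vehicle of Tween80, PEG300 and DMSO. Both were injected intraperitoneally, once with the injury and once 2 h ahead of tissue collection. RNA came from 3 MS275 and 3 vehicle libraries, each of the pooled ganglia of 2 mice, and ATAC-seq, which finds DNA open to a transposase, from 3 mice of each group, 1 mouse per library. There was no uninjured group among the samples, so each difference below is one between MS275 and vehicle in injured mice.

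Satellite glia arise from the neural crest, as Schwann cells do, and form a sheath around each neuron that takes up glutamate and potassium released there. Neighbouring glia of a sheath are joined by gap junctions made of connexins. Glutamine synthetase and the glutamate transporter GLAST turn glutamate over, Fabp7 carries fatty acids, and Sox10 is the transcription factor that sets the glial fate of the neural crest. Most of these markers are shared with other cells: S100b, Cdh19 and Sox10 with Schwann cells, Apoe with macrophages, and Glul with many tissues.

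All 10 markers were counted in all 6 libraries and passed the filter on low counts, with 470 reads (Slc1a3, vehicle replicate 3) as the lowest value and 137020 (Apoe, vehicle replicate 2) as the highest. Reads assigned to genes ranged from 34992533 to 56542966 in the MS275 libraries and from 39148369 to 60370523 in the vehicle libraries. Levels are given in CPM, read counts scaled to library size by TMM factors, a unit that compares 1 gene between libraries and not genes with each other. The MS275 libraries differed more from one another than the vehicle libraries did, and MS275 replicate 1 stood apart. On the first principal component it lay at 40.25, against 4.66 and 14.13 for MS275 replicates 2 and 3 and -23.26 to -14.48 for the vehicle libraries. Its summed level of 9 skeletal muscle genes was 690.8 CPM, with 91.1 and 98.7 CPM in MS275 replicates 2 and 3 and 7.86 to 59.1 CPM in the vehicle libraries. It was also the highest library for the sums of neutrophil, erythroid and adipocyte genes, at 176.5, 142.2 and 16.16 CPM. No other library had more than 44.8, 63.75 and 8.08 CPM of these. Transcripts of sensory neurons were abundant in every library, with 25110 to 27900 CPM summed over 13 genes in MS275 and 24100 to 25200 CPM in vehicle, in keeping with the labelled tissue. Of 6 oligodendrocyte genes, which mark spinal cord tissue, Olig2, Opalin and Mog had at most 1 read in any library and Olig1 at most 5 reads in an MS275 library and 13 in a vehicle library. Mobp had 57 to 142 reads with MS275 and 39 to 145 with vehicle, and Cnp, which Schwann cells also express, 187.8 to 193.0 CPM with MS275 and 160.2 to 187.1 CPM with vehicle.

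The markers did not move as a block. With MS275, Glul and Slc1a3, both of glutamate uptake and turnover, rose by 0.29 and 0.26 on the log2 scale, while Fabp7, Gja1 and Ttyh1 fell by 0.54, 0.35 and 0.34. Apoe, S100b, Cdh19, Sox2 and Sox10 did not pass. That is 2 markers that rose and 3 that fell out of 10, at an adjusted p under 0.05 in edgeR's quasi-likelihood test with Benjamini-Hochberg adjustment over all genes. Over all 16819 genes tested, 5.10% rose (858 genes) and 5.89% fell (991 genes), 11.0% together. The split of all calls depended on the scaling: with library totals in place of TMM factors 680 rose and 1724 fell. Among the 8905 genes counted at least as highly as the lowest marker, 505 rose and 652 fell. For 6 of the 10 markers the 3 MS275 libraries and the 3 vehicle libraries did not overlap, against 33.8% of all genes tested. MS275 was the higher group for Glul, S100b and Slc1a3 (15.9% of all genes) and the lower one for Fabp7, Ttyh1 and Gja1 (17.9% of all genes). The median log2 fold change of the markers was 0.02, and that of all genes tested was 0.002. In whole ganglia, fewer satellite glia and less RNA per glial cell cannot be told apart.

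**Figure D1:**
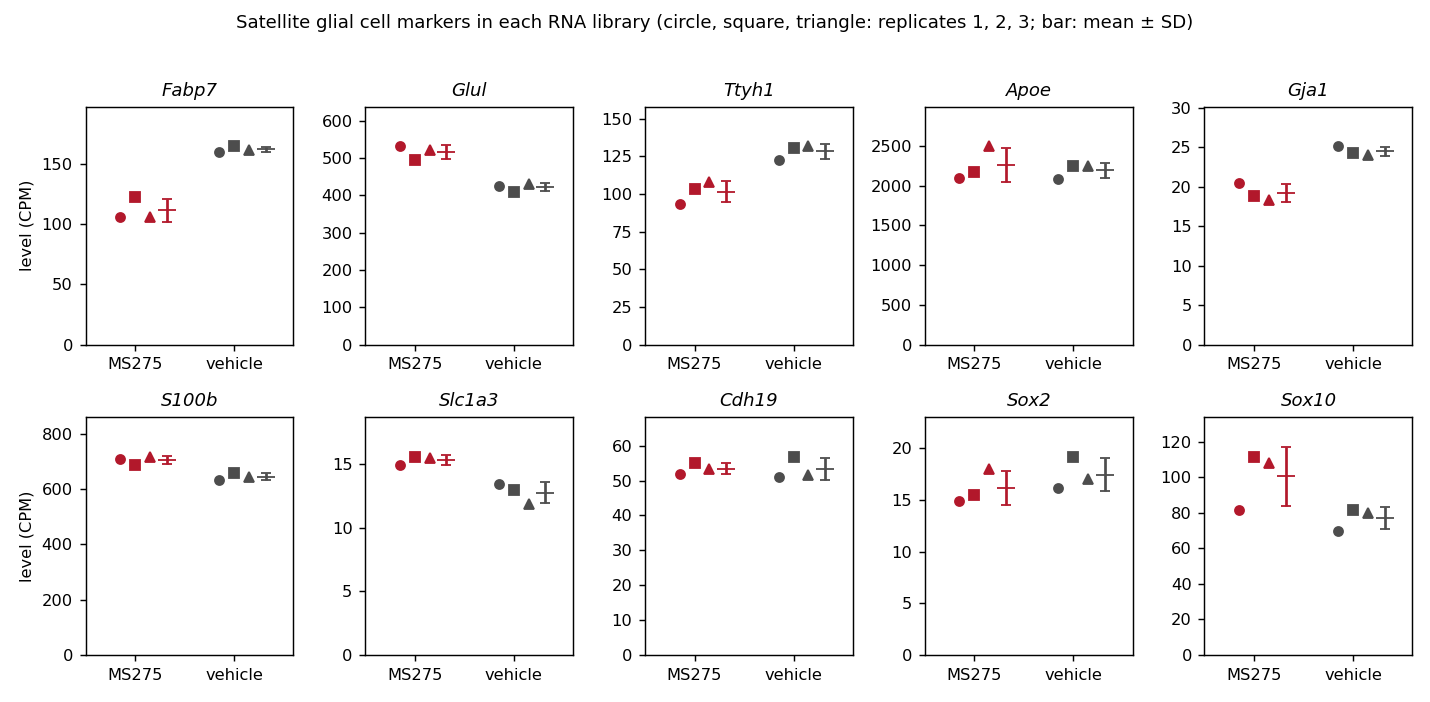
Level of each satellite glial cell marker in CPM (vertical axes, each from 0) in the 3 MS275 libraries (red) and the 3 vehicle libraries (grey), with replicates 1, 2 and 3 as circle, square and triangle and the mean ± SD beside them. Fabp7, Ttyh1 and Gja1 lay below the vehicle libraries in all 3 MS275 libraries, Glul, S100b and Slc1a3 lay above them, and the groups overlapped for Apoe, Cdh19, Sox2 and Sox10.

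The starts of the 5 markers that passed are printed here because open regions of the ATAC lists lie on them, in both lists at Fabp7 and Glul and in 1 list at Ttyh1, Gja1 and Slc1a3. Each is the stretch from 250 bases before to 50 bases after the annotated start, from RefSeq (GRCm38.p6, the assembly of mm10), written 5′ to 3′ in the direction of the gene. Capitals mark the motifs searched on both strands: AACAAAG and AACAATG (SOX factors), GTGGGAA (RBPJ), GGGCGG (GC box), TATAAA (a core promoter element), TGANTCA (AP-1), TGACGTCA (CRE) and CANNTG (E box).
Fabp7, chr10:57784673-57784972, plus strand: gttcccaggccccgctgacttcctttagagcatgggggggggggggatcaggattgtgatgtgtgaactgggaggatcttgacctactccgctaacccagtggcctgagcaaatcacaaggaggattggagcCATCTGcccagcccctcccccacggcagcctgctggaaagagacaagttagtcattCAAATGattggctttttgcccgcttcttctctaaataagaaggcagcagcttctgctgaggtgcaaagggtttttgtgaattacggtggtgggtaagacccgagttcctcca
Ttyh1, chr7:4119280-4119579, plus strand: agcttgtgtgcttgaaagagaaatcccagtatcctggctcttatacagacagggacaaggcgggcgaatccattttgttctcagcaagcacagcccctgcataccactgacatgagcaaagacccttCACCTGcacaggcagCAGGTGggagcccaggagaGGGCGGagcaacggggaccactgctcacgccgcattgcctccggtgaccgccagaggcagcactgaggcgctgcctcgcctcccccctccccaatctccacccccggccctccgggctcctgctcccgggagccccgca
Gja1, chr10:56377050-56377349, plus strand: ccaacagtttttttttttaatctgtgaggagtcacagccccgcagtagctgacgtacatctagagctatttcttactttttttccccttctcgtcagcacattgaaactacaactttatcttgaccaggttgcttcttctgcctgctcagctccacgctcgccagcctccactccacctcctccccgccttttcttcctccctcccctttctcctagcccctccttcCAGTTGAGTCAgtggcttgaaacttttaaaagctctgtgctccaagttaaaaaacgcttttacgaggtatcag
Glul, chr1:153899679-153899978, plus strand: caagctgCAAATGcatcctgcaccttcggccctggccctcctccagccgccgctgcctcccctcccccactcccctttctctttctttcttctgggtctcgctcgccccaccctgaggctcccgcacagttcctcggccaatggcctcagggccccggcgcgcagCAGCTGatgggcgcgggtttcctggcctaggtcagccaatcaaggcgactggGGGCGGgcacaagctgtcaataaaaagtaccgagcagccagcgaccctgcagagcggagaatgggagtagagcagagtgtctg
Slc1a3, chr15:8710758-8711057, minus strand: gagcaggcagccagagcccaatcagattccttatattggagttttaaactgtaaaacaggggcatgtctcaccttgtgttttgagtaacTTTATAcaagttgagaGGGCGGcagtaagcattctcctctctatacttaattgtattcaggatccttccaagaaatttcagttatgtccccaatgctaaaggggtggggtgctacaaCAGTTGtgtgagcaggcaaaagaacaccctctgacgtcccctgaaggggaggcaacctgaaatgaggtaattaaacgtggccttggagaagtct

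Positions are counted from the start, with -1 as the base before it. The Fabp7 start holds 2 E boxes, at -118 and -62, and none of the other letters searched. Glul and Ttyh1 each hold a GC box, at -33 and -89. Gja1 holds an AP-1 motif at -19 that overlaps an E box at -23. Slc1a3 has a GC box at -145 and a TATA box on the other strand at -161. E boxes occur in 72.3% of the 32817 RefSeq promoters of this length, GC boxes in 35.6%, TATA boxes in 13.6% and AP-1 motifs in 7.8%. None of the 5 starts holds either SOX form, which 5.9% (AACAAAG) and 3.8% (AACAATG) of promoters hold. A match is a match of letters only. The base composition of the starts varied, with a GC share of 54.0% for Fabp7, 63.3% for Ttyh1, 47.7% for Gja1, 64.3% for Glul and 45.3% for Slc1a3, against a median of 52.7% over all promoters.

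Fabp7, which encodes the brain-type fatty acid binding protein and is among the most used markers of satellite glia, had 105.8, 122.2 and 105.7 CPM in MS275 replicates 1, 2 and 3, against 159.7, 164.5 and 161.1 CPM in vehicle replicates 1, 2 and 3. All 3 MS275 libraries lay well below the vehicle libraries, which were close to one another. The mean was 111.2 ± 9.53 CPM with MS275 and 161.8 ± 2.49 CPM with vehicle (SD, n = 3 each), a log2 fold change of -0.54 (SE 0.06, adjusted p = 0.0019 in edgeR). That is 0.69 of the vehicle level. The call held with each library left out in turn, with log2 fold changes from -0.61 to -0.50.

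Ttyh1 encodes a membrane protein of the tweety family, a family linked to chloride and volume-regulated currents. It had 93.7, 103.5 and 107.7 CPM in the MS275 libraries, against 122.9, 130.4 and 131.8 CPM in the vehicle libraries. The highest MS275 library lay below the lowest vehicle library. The log2 fold change was -0.34 (SE 0.06, adjusted p = 0.00915 in edgeR), and without vehicle replicate 2 it was -0.33 and did not pass (adjusted p = 0.0567).

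Gja1 encodes the connexin that forms most gap junctions between satellite glia, and it was counted with 633 to 1032 reads in the MS275 libraries and 953 to 1482 in the vehicle libraries. Its level was 20.5, 18.8 and 18.3 CPM with MS275, against 25.2, 24.3 and 24.0 CPM with vehicle. The groups did not overlap. The log2 fold change was -0.35 (SE 0.07, adjusted p = 0.013 in edgeR). It did not pass without vehicle replicate 1 (-0.33, adjusted p = 0.0672) or vehicle replicate 2 (-0.36, adjusted p = 0.0648).

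Glul encodes glutamine synthetase, which makes glutamine from glutamate and ammonia. It had 532.1, 495.1 and 522.5 CPM in the MS275 libraries, against 426.3, 409.3 and 429.4 CPM in the vehicle libraries. Every MS275 library lay above every vehicle library. The mean was 516.5 ± 19.2 CPM with MS275 and 421.7 ± 10.8 CPM with vehicle (SD, n = 3 each), a log2 fold change of 0.29 (SE 0.04, adjusted p = 0.00527 in edgeR), or 1.22 times the vehicle level. It passed with each library left out in turn, with log2 fold changes from 0.27 to 0.33.

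Slc1a3, the gene of the glutamate and aspartate transporter GLAST, had 14.94, 15.62 and 15.49 CPM with MS275, against 13.47, 13.01 and 11.86 CPM with vehicle. The groups did not overlap, and the gap between them was about as wide as the range of the vehicle libraries. The log2 fold change was 0.26 (SE 0.07, adjusted p = 0.047 in edgeR). The call was lost without any 1 of 5 libraries: adjusted p was 0.0645 and 0.0977 without MS275 replicate 2 or 3, and 0.0913, 0.143 and 0.15 without vehicle replicate 1, 2 or 3. Without MS275 replicate 1 it passed (0.28, adjusted p = 0.0439).

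A pair of genes that went opposite ways must shift further in proportion than either gene alone, so the values below restate the changes above. For each read of Fabp7 there were 5.03, 4.05 and 4.94 reads of Glul in the MS275 libraries, against 2.67, 2.49 and 2.66 in the vehicle libraries. For each read of Ttyh1 there were 5.68, 4.78 and 4.85 reads of Glul with MS275, against 3.47, 3.14 and 3.26 with vehicle. Gene length and library size cancel in such a comparison between libraries. The pairs were chosen after the values were seen, so no test is given.

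Sox10 and S100b, markers of both satellite glia and Schwann cells, came close to the threshold. Sox10 had 81.4, 111.7 and 108.3 CPM in MS275 replicates 1, 2 and 3, against 69.8, 81.6 and 79.7 CPM in the vehicle libraries. MS275 replicate 1, the library with the most muscle RNA, lay within the vehicle range, and the other MS275 libraries lay above it. With all libraries the log2 fold change was 0.38 (SE 0.11, adjusted p = 0.0543 in edgeR, 95% interval 0.14 to 0.63), and without MS275 replicate 1 it was 0.52 and passed (adjusted p = 0.00168).

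S100b, which encodes a calcium-binding protein of glia, had 709.1, 688.8 and 718.5 CPM with MS275, against 632.8, 658.5 and 645.9 CPM with vehicle. The groups did not overlap, and the difference was small beside that of Glul. The log2 fold change was 0.13 (SE 0.04, adjusted p = 0.0583 in edgeR), and without MS275 replicate 2 it was 0.15 and passed (adjusted p = 0.0352).

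The remaining markers did not pass, and their groups overlapped. Apoe, which encodes the main lipid carrier made by glia, had 2100, 2175 and 2498 CPM with MS275, against 2087, 2245 and 2245 CPM with vehicle, a log2 fold change of 0.04 (SE 0.07, 95% interval -0.10 to 0.19, adjusted p = 0.712 in edgeR). Cdh19, a cadherin of neural crest glia, had 51.8 to 55.0 CPM with MS275, against 51.0 to 56.9 CPM with vehicle, and its 95% interval was -0.12 to 0.12. Sox2, a transcription factor kept on in satellite glia, had 14.9 to 18.0 CPM with MS275, against 16.1 to 19.2 CPM with vehicle (log2 fold change -0.12, 95% interval -0.33 to 0.09). Sox2 lies inside the span of the non-coding gene Sox2ot, and the Ttyh1 span overlaps the non-coding genes 9430041J12Rik and D030047H15Rik. Sox2ot averaged 491.7 reads a library. The genes at Ttyh1 averaged 59.0 and 10.5 reads, against 3719 to 7962 reads of Ttyh1 itself. How reads of such overlaps were assigned is not known.

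A longer list of 23 other genes known from satellite glia also went both ways: 3 rose and 4 fell, against 5.10% and 5.89% of all genes. Sostdc1, a secreted antagonist of BMP signals, had 24.6, 23.7 and 22.0 CPM with MS275, against 37.5, 40.7 and 33.0 CPM with vehicle, and fell by 0.66 on the log2 scale (SE 0.08). Its MS275 libraries all lay below the vehicle libraries. Fbln5, a fibulin gene, fell by 0.43, the receptor phosphatase gene Ptprz1 by 0.42, and Bcan, which encodes the proteoglycan brevican, by 0.39. Among those that rose, Mt3, a metallothionein gene, rose by 0.35 to 244.5 ± 24.2 CPM with MS275, against 192.0 ± 10.1 CPM with vehicle (SD, n = 3 each). Sparc, which encodes a matrix-binding glycoprotein, rose by 0.25. The genes of this list and of those below were counted in whole ganglia. Which cells carried each change was not tested.

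Of the genes in this longer list that did not pass, Kcnj10, the potassium channel of the glial sheath, had a log2 fold change of 0.04 (SE 0.09). Fewer genes of the list, and fewer of all genes, passed when a vehicle library was left out. The counts of the list were then 2 that rose and 2 that fell without vehicle replicate 1, 1 and 1 without replicate 2, and 1 and 2 without replicate 3. Without MS275 replicates 1, 2 and 3 they were 5 and 4, 4 and 5, and 1 and 2. Over all genes, 196 rose and 179 fell without vehicle replicate 1. The numbers were 127 and 134 without vehicle replicate 2, and 336 and 392 without vehicle replicate 3. Without MS275 replicates 1, 2 and 3 they were 924 and 951, 1388 and 1375, and 448 and 434.

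**Figure D2:**
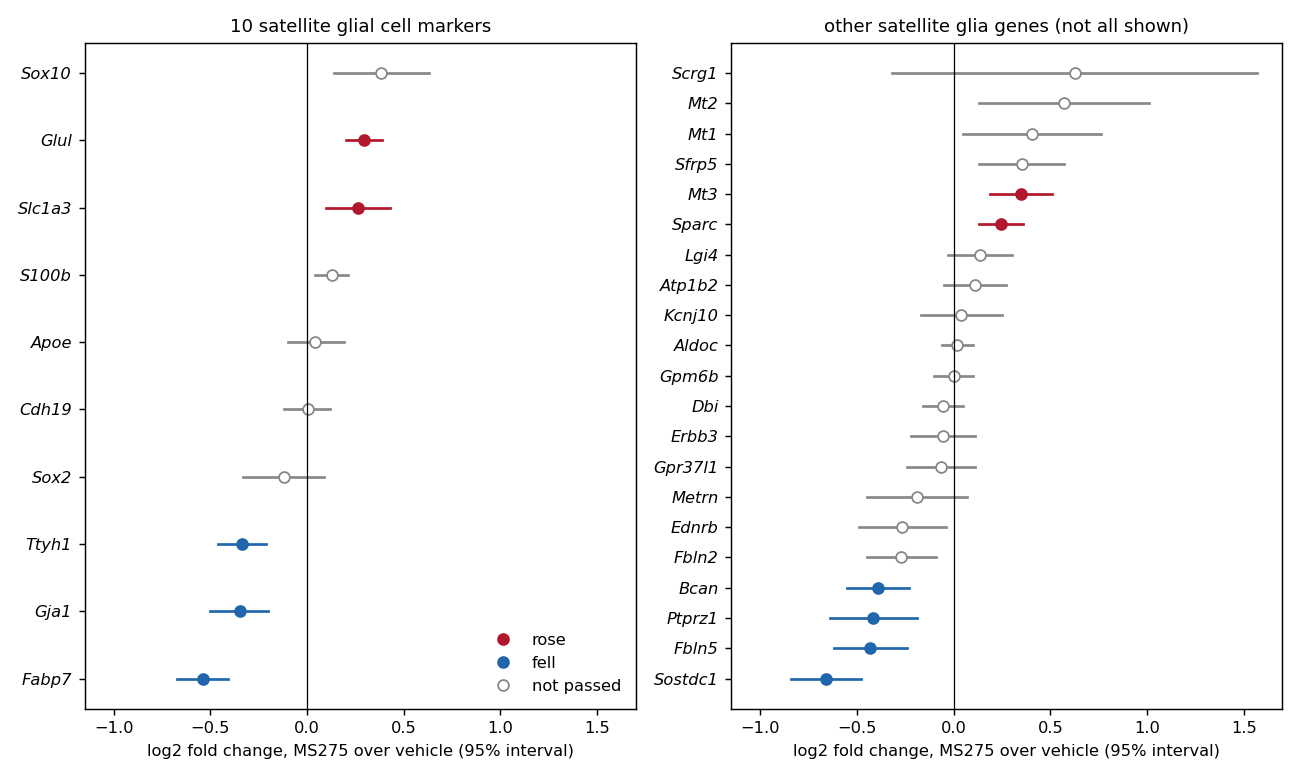
Log2 fold change of MS275 over vehicle (points) with its 95% interval (lines) for the 10 markers (left) and other satellite glia genes (right, not all shown), in red where the gene rose, blue where it fell and open grey where it did not pass an adjusted p of 0.05. Both lists hold genes on either side of 0, from -0.54 (Fabp7) to 0.38 (Sox10) among the markers.

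Lists of the pathways around the markers were counted in the same way, beside the 5.10% of all genes that rose and the 5.89% that fell. Of 16 genes of glutamate and GABA handling besides Glul and Slc1a3, 0 rose and 0 fell in edgeR. DESeq2 called 0 and limma voom called 0, and 3 had p below 0.05 before adjustment in edgeR. With library totals in place of TMM factors edgeR called 2 of them as lower, and without MS275 replicate 2 it called 1. Of 16 genes of gap junctions and of potassium, chloride and water handling, 1 rose and 1 fell, close to those shares. Aqp1, a water channel gene, rose by 0.37 (420.0 CPM with MS275 and 326.2 CPM with vehicle), and Panx1, a pannexin gene, fell by 0.20 (71.5 CPM with MS275 and 81.8 CPM with vehicle). The number of this list that fell was 0 without MS275 replicate 1 or 3 and without each vehicle replicate, and 3 rose without MS275 replicate 1. Gjc3 and Gjb1, connexins of Schwann cells, had log2 fold changes of 0.04 and -0.04.

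Of 19 tested genes of lipid and lipoprotein handling, 3 rose and 0 fell, against 5.10% and 5.89% of all genes. Apoc1, which encodes an apolipoprotein, had 3.20, 2.86 and 2.90 CPM with MS275, against 0.70, 0.852 and 0.858 CPM with vehicle, so the groups lay far apart. Its log2 fold change was 1.89 (SE 0.17, adjusted p = 0.00117 in edgeR). Apoc1 is the neighbour of Apoe: it spans chr7:19689480-19692659 in GRCm38.p6, with 3584 bp between it and the Apoe gene at chr7:19696244-19701310. Apoe itself, as given above, did not pass. Abca1, the cholesterol exporter that loads lipid onto apolipoproteins, rose by 0.33 (83.4 CPM with MS275 and 66.6 CPM with vehicle), and the desaturase gene Scd2 rose by 0.20. In this list 1 gene rose without vehicle replicate 1, and 5 rose without MS275 replicate 1 or 2. Fabp5, a relative of Fabp7, had 103.0 CPM with MS275 and 111.6 CPM with vehicle and did not pass (-0.12, adjusted p = 0.198).

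Of 23 tested glial transcription factors and Notch pathway genes, 3 rose and 2 fell, against 5.10% and 5.89% of all genes. Sox4 rose by 0.54 (38.5 ± 1.01 CPM with MS275 and 26.5 ± 1.80 CPM with vehicle, SD, n = 3 each), the receptor gene Notch1 by 0.38 and Pou3f1, a regulator of Schwann cell myelination, by 0.38. Sox6 fell by 0.47 and Zeb2 by 0.21. In this list 1 gene rose without MS275 replicate 3 or any 1 vehicle replicate. The number that fell was 0 without vehicle replicate 1 or 2, 1 without MS275 replicate 3 or vehicle replicate 3, and 4 without MS275 replicate 2. Sox8 and Sox9, relatives of Sox10 on this list, did not pass. Sox8 had 4.21 CPM with MS275 and 4.0 CPM with vehicle, and Sox9 had 1.96 CPM with MS275 and 1.69 CPM with vehicle. Over the 8 pathway lists together, without the 10 markers, 16 of 135 genes rose and 7 fell, against 5.10% and 5.89% of all genes. With library totals in place of TMM factors 14 rose and 16 fell. Left out in turn, vehicle replicates 1, 2 and 3 gave 5 that rose and 2 that fell, 5 and 1, and 6 and 3, and MS275 replicates 1, 2 and 3 gave 23 and 7, 22 and 15, and 9 and 3. The shares of all genes above belong to the fit with all libraries. Without vehicle replicates 1, 2 and 3 the numbers over all genes were 196 and 179, 127 and 134, and 336 and 392. Without MS275 replicates 1, 2 and 3 they were 924 and 951, 1388 and 1375, and 448 and 434.

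Markers of other cell types in the ganglion, not all of those counted, moved as follows beside these results. Over all genes 5.10% rose and 5.89% fell with all libraries, and fewer passed without any 1 vehicle replicate or MS275 replicate 3, as given above. Among 13 genes of myelinating Schwann cells edgeR, DESeq2 and limma voom each called 0, and in edgeR 0 had p below 0.05 before adjustment. Their summed level was 5972 to 6640 CPM with MS275 and 5421 to 6645 CPM with vehicle. Without vehicle replicate 1, 1 of them rose. The same tools called 0 of 8 macrophage genes, and in edgeR 0 had p below 0.05 before adjustment (70.3 to 84.5 CPM with MS275 and 66.2 to 72.2 CPM with vehicle). In edgeR 0 of 8 genes of non-myelinating Schwann cells passed, and 2 had p below 0.05 before adjustment. Their summed level was 2776 to 2792 CPM with MS275 and 2651 to 2768 CPM with vehicle. Among 13 sensory neuron genes 1 rose and 0 fell in edgeR. Of 8 endothelial genes 5 rose (145.0 to 171.5 CPM with MS275 and 114.3 to 126.7 CPM with vehicle), of 6 mural cell genes 3 rose, and of 9 skeletal muscle genes 8 rose. The endothelial count was 0, 1 and 2 without vehicle replicates 1, 2 and 3 and 1 without MS275 replicate 3, and the mural count 1 without vehicle replicate 2. The muscle count was 0, 0 and 4 without vehicle replicates 1, 2 and 3, and 4 and 5 without MS275 replicates 1 and 3.

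Glul is also on in vessels and muscle, and the part of these cells in its rise was not tested. Without MS275 replicate 1, the library richest in muscle RNA, the log2 fold changes were 0.27 for Glul, -0.50 for Fabp7, -0.28 for Ttyh1, -0.40 for Gja1 and 0.28 for Slc1a3, and all 5 passed. With the summed muscle level as a covariate the log2 fold changes were 0.22 (SE 0.06) for Glul, -0.46 (SE 0.09) for Fabp7, -0.25 (SE 0.09) for Ttyh1, -0.43 (SE 0.10) for Gja1 and 0.38 (SE 0.12) for Slc1a3. The standard errors were larger than without the covariate, and none of the 10 markers passed, with adjusted p from 0.0807 (Fabp7) upward. In that fit 33 genes passed out of all genes, against 1849. The summed muscle level was higher in every MS275 library (91.1 to 690.8 CPM) than in every vehicle library (7.86 to 59.1 CPM). Muscle level and treatment therefore cannot be told apart in this fit.

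**Figure D3:**
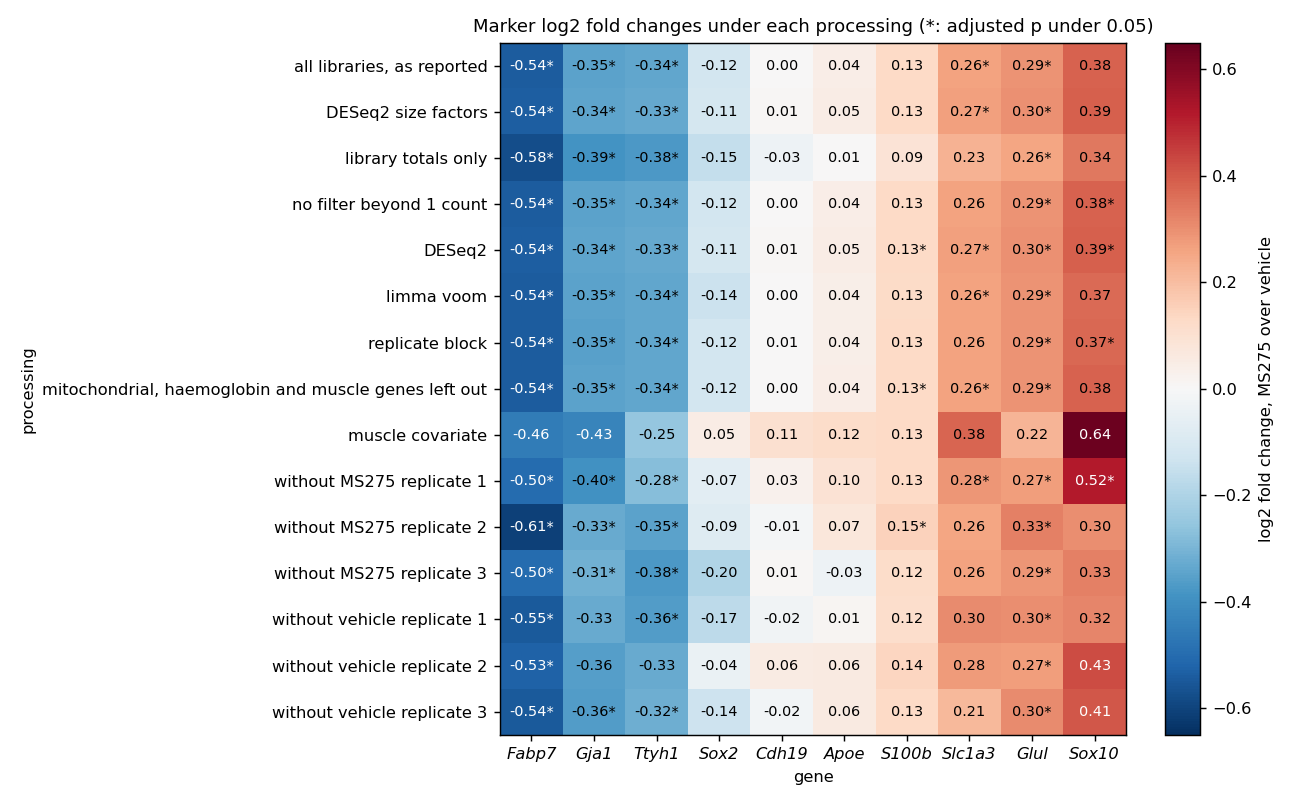
Log2 fold change of MS275 over vehicle (colour and number) of each marker (columns) under each processing of the RNA counts (rows), with a star where the adjusted p was under 0.05. Fabp7 and Glul kept their stars in all rows but that of the muscle covariate, where no marker has a star, and Slc1a3 lost its star in 9 of 14 alternatives.

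The ATAC lists show which DNA at these genes was open. Each treatment had 1 list from combined replicates, so differences between the lists have no replicate check, and fold enrichment and q are the authors' values for each region. Within 5000 bp of the 10 genes there were 39 regions in the MS275 list and 43 in the vehicle list. Of these, 29 of the MS275 list (74.4%) overlapped a region of the vehicle list, and 27 of the vehicle list (62.8%) overlapped one of the MS275 list. For regions within 5000 bp of any tested gene these shares were 57.5% of the MS275 list and 49.4% of the vehicle list, and over the whole lists 52.8% of 161788 MS275 regions and 47.5% of 177906 vehicle regions.

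The starts of Fabp7 and Glul, printed above, were open in both lists over all 300 bases. At Glul the region on the start, 1152 bp long in the MS275 list and 1325 bp in the vehicle list, had a fold enrichment of 4.37 in the MS275 list and 4.42 in the vehicle list, above 96.9% and 97.4% of the regions of each list. At Fabp7 the region was narrower and weaker, at 326 bp and 2.03-fold in the MS275 list and 371 bp and 2.07-fold in the vehicle list. The MS275 list held 2 more regions before the Fabp7 start, with summits at -904 and -2949 bp from it, which overlapped no region of the vehicle list. They were 1.79-fold and 1.65-fold, with -log10 q of 2.3 and 1.4. The medians of the MS275 list were 1.75-fold and a -log10 q of 2.28. Of its regions near tested genes, 57.5% overlapped the vehicle list, so regions without overlap were common. The RNA of Fabp7 was lower with MS275, as given above.

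The printed 300-base starts of Gja1, Ttyh1 and Slc1a3 overlapped regions of 1 list only. At Gja1 a region of 254 bp in the vehicle list covered 217 bases of the printed start (2.04-fold, -log10 q 5.9), with none in the MS275 list. A second Gja1 region inside the gene, with its summit at 1433 bp in the MS275 list and 1423 bp in the vehicle list, was in both. It began 516 bp after the start in the MS275 list and 519 bp after it in the vehicle list. Both lists therefore held a region close to the Gja1 start. At Ttyh1 a weak region of the vehicle list covered 86 bases (1.55-fold, -log10 q 2.1), with none in the MS275 list. Both lists held a stronger region inside Ttyh1. Its summit lay 4388 bp after the start in the MS275 list (3.85-fold) and 4298 bp after it in the vehicle list (3.08-fold). A still stronger region lay beyond the end of the gene in both lists (5.34-fold in the MS275 list and 5.01-fold in the vehicle list). Whether that region belongs to Ttyh1 or to a neighbouring gene was not tested. At Slc1a3 a region of 815 bp in the MS275 list covered 186 bases of the start (2.20-fold, -log10 q 5.8), with none in the vehicle list. Gja1 and Ttyh1 were lower in RNA with MS275 and Slc1a3 higher. Over the 11578 tested genes with a RefSeq start, 85.0% had the start in both lists, 1.88% in the MS275 list only and 2.99% in the vehicle list only. Among all genes that rose, 76.4% had it in both, 3.16% in the MS275 list only and 4.83% in the vehicle list only. Among all genes that fell, 96.4% had it in both, 0.266% in the MS275 list only and 0.932% in the vehicle list only.

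**Figure D4:**
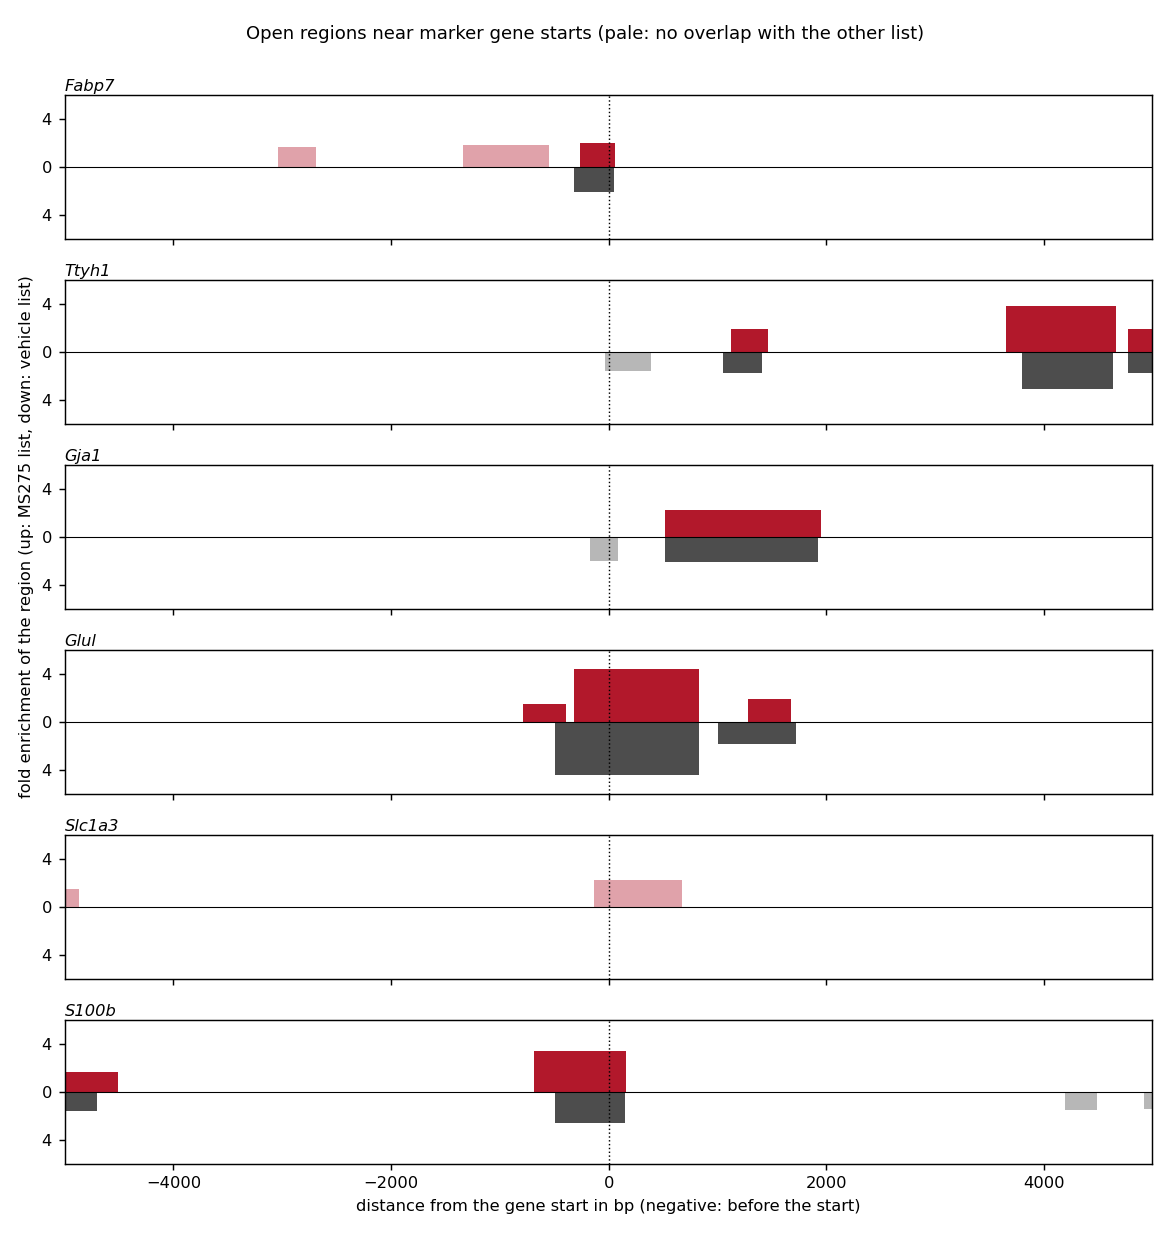
Open regions within 5000 bp of the start of 6 markers, by distance from the start in bp (horizontal axis, in the direction of the gene), with fold enrichment as height, MS275 list upward in red and vehicle list downward in grey, and regions that overlap none of the other list in pale colour. The starts of Fabp7, Glul and S100b carry a region in both lists, those of Ttyh1 and Gja1 in the vehicle list and that of Slc1a3 in the MS275 list.

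The starts of S100b and Sox2 were in both lists. At S100b the region on the start was 846 bp long with a fold enrichment of 3.42 in the MS275 list, and 642 bp with 2.58 in the vehicle list. Apoe has 3 RefSeq starts in this table, all inside the span of the gene. A region covered 212 bases around the one farthest upstream in the MS275 list (2.71-fold) and 210 bases in the vehicle list (2.11-fold). Around the next start no base was covered in the MS275 list and 120 bases in the vehicle list, and around the last none in either list. The vehicle list had 2 further regions before the start farthest upstream, and neither overlapped a region of the MS275 list. Their summits lay at -1943 bp from that start, still inside the gene span, and at -2430 bp, outside the span. The region at -1943 bp ran from 19700930 to 19701264, close to the upstream end of the gene span at 19701310. Between Apoe and Apoc1 lay a region in both lists, from 19693036 to 19693852 on chromosome 7 in the MS275 list (2.11-fold) and from 19693274 to 19693852 in the vehicle list (2.17-fold). At Sox2, a single region of 2551 bp in the vehicle list ran from before the start into the gene, where the MS275 list had 3 separate regions of 747, 405 and 405 bp. RefSeq starts were matched for 8 of the 10 markers, not for Cdh19 and Sox10. At Sox10 the vehicle list held 7 regions over 3717 bp, 5 of them not in the MS275 list, and the MS275 list held 2 over 846 bp. Those 5 were weak, at 1.49-fold to 1.65-fold, below the vehicle list's median of 1.7-fold. The vehicle regions that were shared had 1.52-fold and 1.82-fold. Near tested genes 49.4% of vehicle regions overlapped the MS275 list. At Cdh19 there were 2 regions in the MS275 list and 1 in the vehicle list. That of the vehicle list overlapped one of the MS275 list.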

How the data were processed

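RNA counts and ATAC regions of injured dorsal root ganglia were used. Per the labels' protocols, poly(A) RNA was made into directional libraries and read in pairs of 75 bp. The authors deposited raw read counts per gene symbol. The submitters' processing notes list mm10, STAR 2.7.0, edgeR 3.24.3 and limma 3.38.3. No counter or strand setting is named there. The 5 rows that name no gene (18.89% to 20.56% of reads) were left out. In the narrowPeak layout, the deposited ATAC lists give each region's score (not used), its fold enrichment as a ratio, its -log10 q-value and its summit. The authors' caller is not named in the labels.

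The deposited counts entered edgeR 4.0.16 under R 4.3.3 (TMM, filterByExpr, quasi-likelihood F test, 2-sided, treatment as the only term, Benjamini-Hochberg over 16819 genes, threshold 0.05). SE is the size of the log2 fold change over the root of F. The design text calls the triplicates biological. Samples were grouped by their titles, and every pair of replicate libraries differed beyond counting noise (chi-square per degree of freedom of at least 7.20). The fit was tested on simulated data with known answers. Those data had an equal spread in both groups and larger changes than the markers had. They therefore do not cover the uneven MS275 libraries or changes as small as those of the markers. Overlapping ATAC entries were merged within a list, and 1 bp of overlap counted as shared. ATAC depth is unknown. Members, lists and tests were chosen with earlier results of these data known. All 10 members are described, and of each pathway list those that passed, up to 6 by p, with some others named for their role after their values were seen. A few genes are counted in their lists but not reported here by name. Alternatives covered normalisation, filter, DESeq2 1.42.0, limma 3.58.1 (voom), a replicate block, each library left out, a muscle covariate and, for ATAC, threshold, window and overlap.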

Additional observations from a re-analysis of the deposited data

How the results depend on the processing

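Fabp7, Glul, Ttyh1, Gja1 and Slc1a3 kept their direction under all 14 alternative fits, with log2 fold changes of -0.61 to -0.46, 0.22 to 0.33, -0.38 to -0.25, -0.43 to -0.31 and 0.21 to 0.38. The 1849 changed genes became 350 at an adjusted p under 0.01 and 33 with the muscle covariate, and 261 to 2763 with a library left out. The 2 markers that rose became 1 at an adjusted p under 0.01 and with library totals only, 4 with DESeq2, 0 with the muscle covariate, and 1 to 3 with a library left out. The 3 that fell became 0 with the muscle covariate and 1 to 3 with a library left out. The cause was not tested. No set of replicate numbers paired the libraries: deviations of libraries with the same number correlated at 0.019, 0.111 and -0.061. With the replicate block 2088 genes passed, and of the markers 2 rose and 3 fell, Sox10 in place of Slc1a3. Of 588 counts over the fixed lists, 452 stayed within 1.5 times. Marker regions fell to 16 (MS275 list) and 21 (vehicle list), with 13 and 13 shared, at a -log10 q of at least 5, since fewer regions enter, and came to 65 and 76, with 45 and 44 shared, within 20000 bp. The marker with the fewest reads was Slc1a3, with 535 to 858 in MS275 and 470 to 794 in vehicle libraries.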

Other observations

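Among the genes of mean log2 CPM of at least 3 (10467 genes), those whose profile over the 6 libraries lay nearest to that of Fabp7 were Stab1, Papolg and Phf15, at Euclidean distances of 0.073, 0.088 and 0.109 on the log2 scale after centring each gene on its mean. Among the 3 nearest to Glul were Rgs3 and Nrn1, at 0.04 and 0.045. These are descriptions over 6 libraries in 2 groups.

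Of 11 genes listed with S100b, which are S100 genes and their receptor gene Ager, 3 rose and 0 fell: S100a4 by 0.44 (24.0 CPM with MS275 and 17.7 CPM with vehicle), S100a13 by 0.23 and S100a3, below 1 CPM in both groups, by 1.05. Of 14 cadherin and adhesion genes besides Cdh19, Cadm1 rose by 0.23 and Cdh1 by 0.17. Of 14 tested genes of reactive glia only Cd44, a hyaluronan receptor gene, rose (0.21). Over all genes 5.10% rose and 5.89% fell. Without vehicle replicate 1 or 2, the number that rose was 0 in each of the 3 lists, and without vehicle replicate 3 it was 0, 1 and 0. Of all genes, 858 rose with all libraries, and 196, 127 and 336 without vehicle replicates 1, 2 and 3.

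Gfap, the filament gene by which reactive glia are often recognised, had 5.16, 4.91 and 3.30 CPM in MS275 replicates 1, 2 and 3, against 16.8, 4.78 and 3.31 CPM in vehicle replicates 1, 2 and 3. A single vehicle library was high, and the other 5 libraries overlapped. The log2 fold change was -0.88 (SE 0.50) and did not pass (adjusted p = 0.284 in edgeR). Aqp4, a water channel gene of astrocytes, rose by 0.50 (17.1 ± 1.45 CPM with MS275 and 12.1 ± 1.97 CPM with vehicle, SD, n = 3 each), and Slc4a4, a bicarbonate transporter gene, fell by 0.23. They were the 2 of 7 CNS astrocyte genes that passed, and the median log2 fold change of the 7 was -0.15. Over all genes 5.10% rose and 5.89% fell. The number of these genes that rose, 1, was 0 without MS275 replicate 3 and without vehicle replicates 2 or 3. The number that fell, 1, was 0 without MS275 replicate 3 and without vehicle replicates 1 or 2.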
